A study of Mus musculus with 44 samples.

Results

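Mouse chromosome 19 carried 5096 of the 162947 regions in 3 deposited lists of Polycomb binding. It had 182 of 2569 entries for PCGF1, 1074 of 24987 for RING1B and 3840 of 135391 for the histone mark H3K27me3. Members were all entries on that chromosome, whatever their strength, and they were set against chromosomes 1 to 18, which held 142835 entries. They were selected on their listed position, and the chromosome itself with its shares of overlapping peaks in these lists already known, so the values are a description. The data came from chromatin immunoprecipitation and sequencing of IdHP cells, haematopoietic progenitors from the bone marrow of B6CBAF1/J mice that were kept on TSt4 stroma cells with IL7, SCF and a ligand written Fl3L, for 15 to 18 passages. The PCGF1 list stands for 2 FLAG libraries of Pcgf1 -/- cells carrying FLAG-PCGF1, precipitated with the M2 antibody. The RING1B and H3K27me3 lists each stand for 2 libraries of Pcgf1 fl/fl cells. The FLAG libraries therefore come from other cells than the rest, with a tagged protein put back into cells that lack their own, and overlap sets sites side by side across both populations. Whether libraries of a pair came from separate cultures is not stated. Each list pools its pair, so no value has a replicate error and no test between chromosomes was made. The other 38 of 44 libraries, the untagged FLAG control among them, were not analysed here.

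PCGF1 is a RING finger protein found in a variant form of Polycomb repressive complex 1, together with KDM2B, which binds unmethylated CpG-rich DNA. RING1B is the catalytic subunit shared by the canonical and variant forms of that complex and places ubiquitin on histone H2A. H3K27me3 is the mark written by Polycomb repressive complex 2, and canonical complexes bind it through CBX proteins. Variant complexes can bind without the mark, so sites with RING1B alone are known beside broad domains that hold both.

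Chromosome 19 had the highest density of all 3 lists among the 19 autosomes. It makes up 2.42% of the autosomal span, measured from the first to the last base covered by any list, which for this chromosome was 58.3 Mb. Of the autosomal entries it held 7.13% for PCGF1 (exact 95% binomial interval 6.16 to 8.20), 4.42% for RING1B (4.16 to 4.68) and 3.17% for H3K27me3 (3.07 to 3.27). These intervals cover counting error only, and neighbouring peaks are not independent.

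PCGF1 peaks numbered 3.12 per Mb on chromosome 19. The other autosomes ranged from 0.696 per Mb on chromosome 3 to 1.67 on chromosome 11, with a median of 0.922, so the chromosome stood 3.38-fold above the median (exact Poisson interval of its own count 2.91 to 3.91). RING1B peaks numbered 18.4 per Mb, against 6.64 on chromosome 8 to 14.6 on chromosome 11 and a median of 9.44, which is 1.95-fold (1.83 to 2.07). H3K27me3 regions were 1.34 times as dense as the median (1.30 to 1.39), at 65.8 per Mb against 45.2 to 57.1. The excess was thus largest for PCGF1 and smallest for the histone mark. With only peaks of a -log10 q of at least 5 the PCGF1 ratio was 0.811, from 1 peak on the chromosome.

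**Figure D1:**
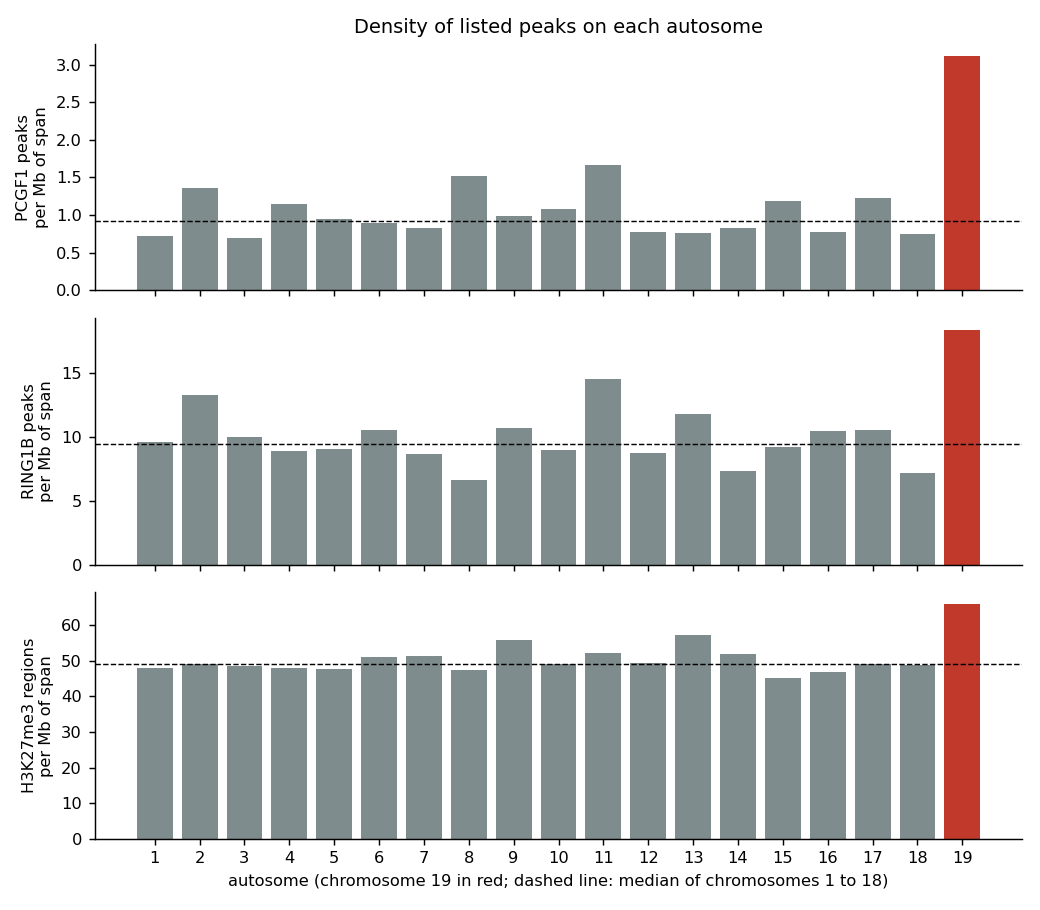
Peaks or regions per Mb of span on each autosome for the PCGF1, RING1B and H3K27me3 lists, with chromosome 19 in red and the median of chromosomes 1 to 18 as a dashed line. Chromosome 19 is the tallest bar in each panel, at 3.12, 18.4 and 65.8 per Mb.

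Covered length followed the same order. H3K27me3 regions covered 28.4% of chromosome 19, against 14.8% of chromosome 10 to 23.6% of chromosome 11 and a median of 17.6%. RING1B peaks covered 3.25%, against 0.778% to 2.45%. For PCGF1 the covered share was 0.120%, against 0.0242% to 0.100%. By this measure chromosome 8 came next for PCGF1, chromosome 2 for RING1B and chromosome 11 for H3K27me3.

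The peaks on chromosome 19 were not the strongest by fold, the authors' enrichment over background for each peak. The median PCGF1 fold was 4.66, below each of the other autosomes (4.70 to 4.91), while its median -log10 q, the significance of a peak, was 2.04 and higher than on 17 of the other 18. Among the strongest 10% of autosomal PCGF1 peaks by -log10 q, 10 of 256 lay on chromosome 19 (3.91%, 1.89 to 7.07), a smaller share than the 7.13% of all peaks. Fold and q also related to each other in another way here. At the same -log10 q, its PCGF1 peaks had lower folds than those of every other autosome, in 4 of 4 bands of q, which were set after the data were seen. Between 1.6 and 2 the median fold of its 40 peaks was 4.53, against 4.72 to 4.78 on chromosomes 1 to 18. For RING1B the medians were inside the range of the others in each band, and below their median: between 1.6 and 2 the median was 3.02 against 2.99 to 3.04. In the lowest and the highest band chromosome 17 alone was lower. The density of the stronger 50% of PCGF1 peaks depended on which was used: ranked by q it was 3.83 times the median of the other autosomes (100 peaks), and ranked by fold, a choice made after seeing the data, 2.34 times (65 peaks). Read counts and copy number per chromosome were not analysed here, and the part of this fold difference in the density was not tested.

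RING1B fold was also the lowest of the autosomes, but by little, with a median of 3.18 against 3.20 to 3.26. H3K27me3 went the other way. Its median height, the highest signal in a region on a scale that is not stated, was 71.9 against 66.2 to 69.3, and 522 of the tallest 10% of autosomal regions lay on the chromosome (4.31%, 3.95 to 4.69). The height of regions that held RING1B did not share this: their median was 105.6, the same as the median of the other autosomes to that precision, while regions without RING1B had 69.7 against 65.3 to 67.8.

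Over the whole lists, widths were shifted upwards for H3K27me3 and RING1B, and less clearly for PCGF1. Among the stronger 50%, the H3K27me3 median of 3145 bp was inside the range of the others (2630 to 3440 bp), and the PCGF1 median of 340.5 bp was below their median of 405.75 bp. The median H3K27me3 region was 2050 bp wide, against 1710 to 1970 bp, and its part above the authors' cutoff 240 bp, against 190 to 220 bp. Regions over 10 kb made up 8.59% of those on chromosome 19 (7.73 to 9.53), a share exceeded on chromosomes 11 and 2, and per Mb they were the most frequent, at 5.66 against 2.21 to 4.97. RING1B peaks had a median width of 811 bp, which was below chromosome 3 alone (832 bp). The lower quartile of RING1B widths, 463 bp, was the highest of the autosomes, so the chromosome had fewer of the shortest peaks: 28.1% were up to 500 bp wide, against 33.3% on chromosomes 1 to 18. RING1B domains over 10 kb numbered 27, or 0.463 per Mb against 0.0311 to 0.418. PCGF1 peaks were short here as elsewhere, with a median of 244 bp and a range of 49 to 2148 bp, and 5 autosomes had a higher median.

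Along the chromosome the density was raised in many bins, with PCGF1 highest in a few stretches. The chromosome was cut into 59 bins of 1 Mb, and a peak was counted in the bin of its midpoint. The 10 bins fullest in PCGF1 (16.9% of bins) held at least 50% of its peaks, where the other autosomes needed 5.43% to 12.3% of bins. This share of bins depends on the number of peaks per bin, and it was not adjusted for the higher density here. It was also the highest of the autosomes for RING1B (23.7%) and for H3K27me3 (39.0%). Whether PCGF1 was less gathered than its density implies was not tested. The median bin held 2 PCGF1 peaks, 13 RING1B peaks and 65 H3K27me3 regions, against 0, 6 and 50 in the 2366 bins of chromosomes 1 to 18. PCGF1 was absent from 17 bins (28.8%), where 59.8% of the other bins had none. RING1B was absent from 4 bins (6.78%), where 23.0% of the others had none. The RING1B count was above the median of the other bins in 41 of 59 bins (69.5%, against 46.8% of the other bins) and the H3K27me3 count in 45 (76.3%, against 48.5%). Without the pair of bins richest in PCGF1 the density ratio was 2.95.

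**Figure D2:**
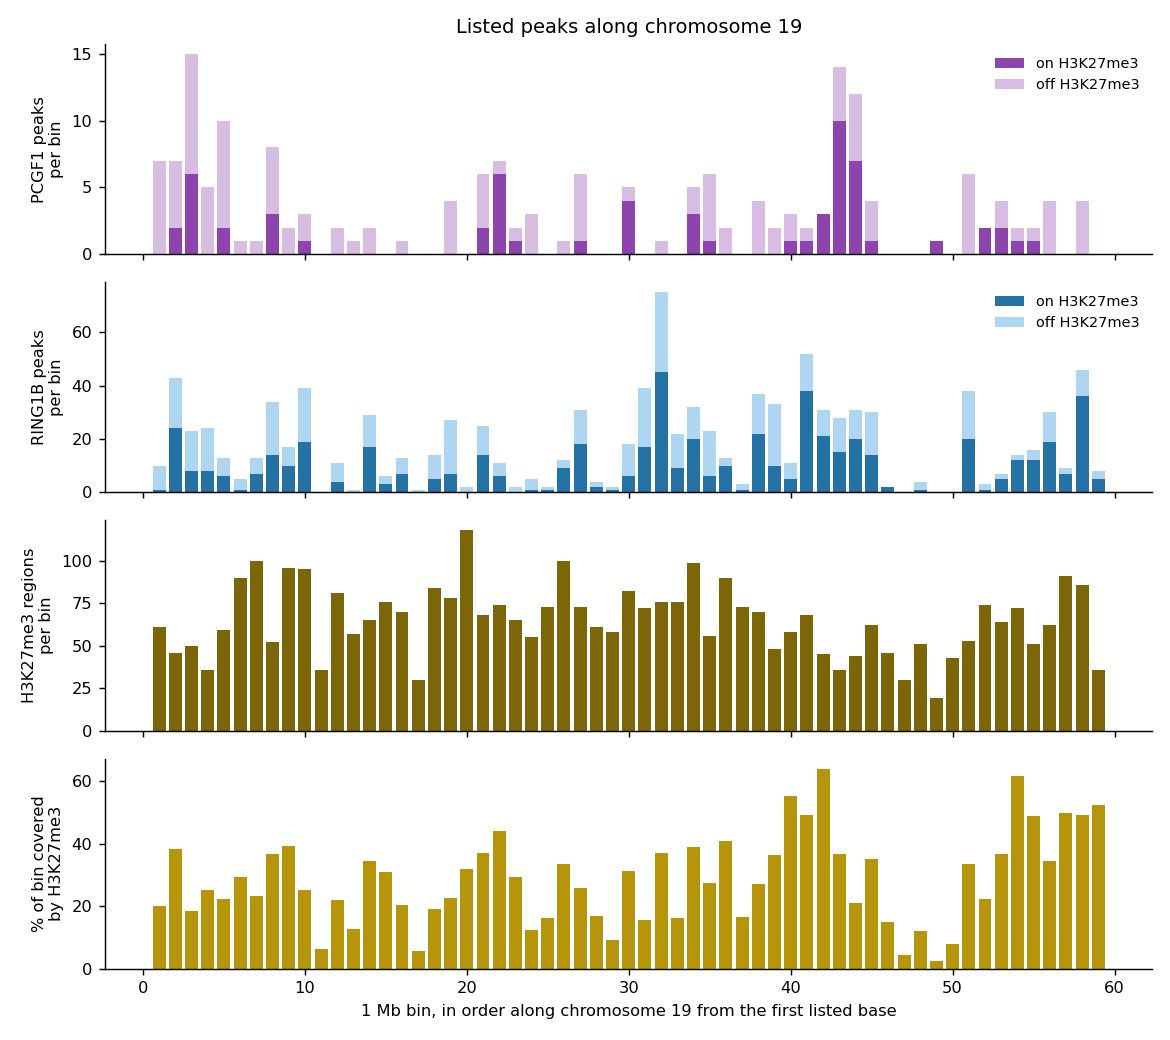
Counts per 1 Mb bin of chromosome 19, in order from the first listed base, for PCGF1 and RING1B peaks on and off H3K27me3 and for H3K27me3 regions, and the percentage of each bin covered by H3K27me3. PCGF1 peaks gather in the first 5 bins, mostly off H3K27me3, and in bins 43 and 44, mostly on it, while RING1B is highest at bin 32, which has 1 PCGF1 peak.

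PCGF1 was densest at both a proximal stretch and a distal block. Positions are in build mm9. The bins richest in PCGF1 began at 5000001 (15 peaks), 45000001 (14), 46000001 (12), 7000001 (10) and 10000001 (8). The richest in RING1B began at 34000001 (75 peaks), 43000001 (52), 60000001 (46), 4000001 (43) and 12000001 (39), a count shared by the bin at 33000001. No bin appears in both lists of 5. H3K27me3 regions were most numerous in the bin at 22000001, with 118, where RING1B had 2 peaks and PCGF1 none. The bins with the most H3K27me3 cover were others again, led by 44000001 (64.1%) and 56000001 (61.8%).

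The first 5 bins and the block from 45 to 47 Mb differed in their share of PCGF1 peaks on H3K27me3. Both were chosen after their counts were seen. The mark covered 24.9% of the first 5 bins and 28.9% of the block. The first 5 bins held 44 PCGF1 peaks, which is 24.2% of the chromosome's total. Of these, 10 lay on H3K27me3 (22.7%, 11.5 to 37.8), 23 on RING1B (52.3%, 36.7 to 67.5) and 17 on neither. Of the 113 RING1B peaks there, 21 held PCGF1 (18.6%, 11.9 to 26.99). In the block from 45 to 47 Mb, 17 of 26 PCGF1 peaks lay on H3K27me3 (65.4%, 44.3 to 82.8) and 21 on RING1B (80.8%, 60.6 to 93.4). Most of the PCGF1 peaks on the mark in that block shared a few regions: 3 of the tallest H3K27me3 regions held 10, 4 and 2 of them, and a single RING1B domain 9, so they are not independent. Another kind of stretch, from 33 to 36 Mb, had 136 RING1B peaks, 71 of them on H3K27me3, and 1 PCGF1 peak. A sparse stretch followed the distal block: from 48 to 53 Mb there were 6 RING1B peaks and 1 PCGF1 peak in 5 Mb, and H3K27me3 covered 8.38%. The longest run of bins without PCGF1, from 48000001 to 51000000, was part of it. From 53 Mb to the end of the chromosome the mark was broad again, with 42.6% of the sequence covered. There 117 of 171 RING1B peaks lay on H3K27me3 (68.4%, 60.9 to 75.3) but 6 of 24 PCGF1 peaks did (25%, 9.77 to 46.7). The long middle from 8 to 45 Mb stood between, with 356 of 695 RING1B peaks (51.2%, 47.4 to 55.0) and 27 of 83 PCGF1 peaks (32.5%, 22.6 to 43.7) on the mark. These stretches too were set after the counts were seen.

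Bins rich in RING1B tended to be rich in PCGF1 and in H3K27me3 cover, while PCGF1 followed that cover less closely. Across the 59 bins, Spearman's rho between PCGF1 and RING1B counts was 0.59 (Pearson's r 0.37), near the middle of the other autosomes (rho 0.24 to 0.71). Between RING1B counts and H3K27me3 cover rho was 0.54, below the other autosomes (0.58 to 0.82), as it was with bins of 2 Mb (0.53 against 0.55 to 0.88). It was inside their range with bins of 0.5 Mb (0.54 against 0.53 to 0.78) and by Pearson's r (0.42 against 0.36 to 0.74). Between PCGF1 counts and H3K27me3 cover rho was 0.40 (others 0.30 to 0.69), and Pearson's r was 0.17, below all the others (0.20 to 0.57). Between the number of H3K27me3 regions and their cover rho was 0.28, where the others had 0.54 to 0.92. Bins on this chromosome with more H3K27me3 regions were thus less often those with more sequence covered. Bins share libraries, depth and base composition, and these coefficients carry no p.

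PCGF1 peaks on chromosome 19 met RING1B about as often as elsewhere, but they met H3K27me3 less often than on each of the other autosomes. On RING1B lay 136 of 182 PCGF1 peaks (74.7%, 67.8 to 80.9), against 66.7% to 85.6% elsewhere, with 9 autosomes above and 9 below. On H3K27me3 lay 62 (34.1%, 27.2 to 41.4), against 40% on chromosome 13 to 64.2% on chromosome 7 and 51.5% over chromosomes 1 to 18 (49.5 to 53.5). H3K27me3 nevertheless covered more of this chromosome than of any other autosome. Without the first 5 bins the share was 37.7%, and without the block from 45 to 47 Mb it was 28.8%.

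Classed by both partners, 87 PCGF1 peaks (47.8%, 40.4 to 55.3) lay on RING1B without H3K27me3, against 35.4% over chromosomes 1 to 18, and chromosomes 13 and 18 had higher shares. These had a median width of 228 bp and a median fold of 4.69. On both partners lay 49 (26.9%, 20.6 to 34.0), against 40%, and this class was the widest, with a median of 412 bp. On neither lay 33 (18.1%, 12.8 to 24.5), a share that chromosome 10 alone exceeded, and 13 (7.14%, 3.86 to 11.9) lay on H3K27me3 without RING1B. PCGF1 peaks off RING1B were close to it: their median distance to the nearest RING1B peak was 736.5 bp, against 454.5 to 20284 bp on other autosomes and a median of 6399 bp. With peaks within 1 kb counted as overlapping, 87.9% of PCGF1 peaks met RING1B, close to the 86.5% of chromosomes 1 to 18.

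**Figure D3:**
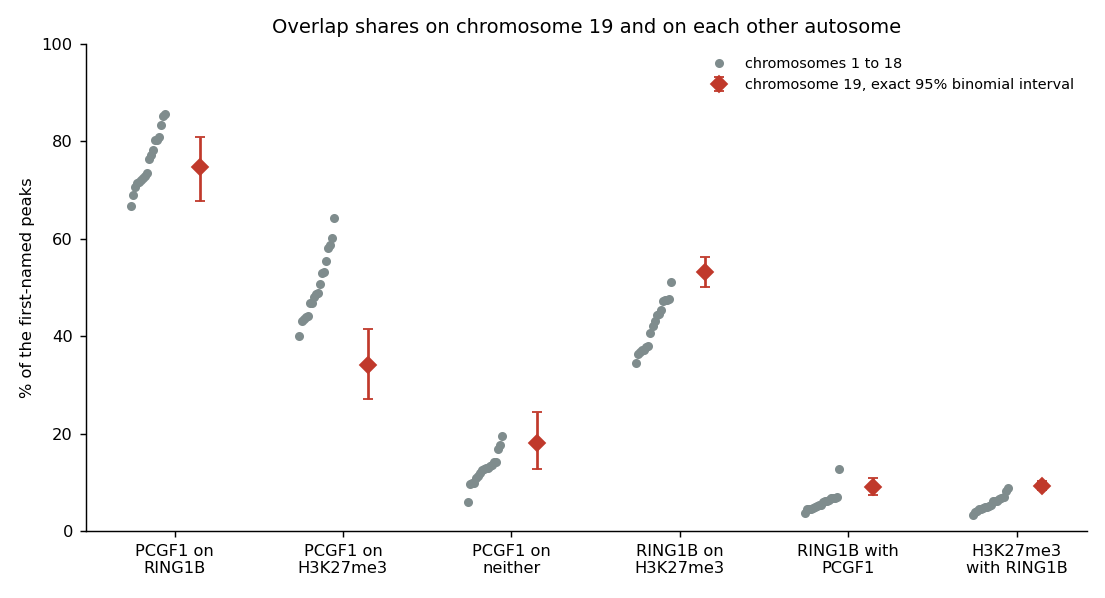
Percentage of the first-named peaks that overlap the second list by at least 1 bp, for each of chromosomes 1 to 18 (grey points, sorted) and for chromosome 19 (red, with its exact 95% binomial interval). PCGF1 on H3K27me3 lies below all grey points at 34.1%, while RING1B on H3K27me3 lies above them at 53.3%.

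RING1B peaks stood at the other end of the autosomes from PCGF1 peaks. On H3K27me3 lay 572 of 1074 (53.3%, 50.2 to 56.3), the highest share of the autosomes, against 34.5% on chromosome 16 to 51.1% on chromosome 2. The mark also covered the most sequence here, 28.4% against 14.8% to 23.6%. Shares on H3K27me3 were not adjusted for this cover, so a higher share does not by itself show a closer tie to the mark. RING1B peaks on H3K27me3 numbered 9.80 per Mb, 2.57 times the median of the others, and those off it 8.60 per Mb, 1.55 times. For PCGF1 the order was turned, with 1.06 peaks per Mb on H3K27me3 (2.27 times the median) and 2.06 per Mb off it (4.56 times). Seen from the mark, 360 of 3840 H3K27me3 regions held RING1B (9.38%, 8.47 to 10.3), also the highest of the autosomes, where the range was 3.29% to 8.98%. PCGF1 lay in 33 of those regions (0.859%, 0.592 to 1.20), and 4 autosomes had a higher share.

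RING1B peaks on chromosome 19 held PCGF1 more often than on any autosome but chromosome 8. The share was 98 of 1074 (9.12%, 7.47 to 11.0), against 3.68% to 12.7%, with chromosome 17 next below at 6.96%. This share was among the values known when the chromosome was chosen. It also depends on the sizes of both lists: there were 5.90 RING1B peaks per PCGF1 peak here, against a median of 9.71 on the others. Chromosome 8 alone had fewer, at 4.36. No adjustment was made for this ratio, and its part in the share was not tested. The share rises with the width of a RING1B peak in these lists, and peaks here were somewhat wider. At the widths of chromosome 19, RING1B peaks of chromosomes 1 to 18 would hold PCGF1 in 6.26%, so 2.86 percentage points of the difference remained. For the share on H3K27me3 the same adjustment gave 44.9%, and 8.34 points remained.

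The difference in PCGF1 was clearest on RING1B peaks of middle width. Among peaks of 1000 to 2000 bp, 29 of 222 held PCGF1 (13.1%, 8.93 to 18.2), against 7.23% (6.49 to 8.03) on chromosomes 1 to 18. Among those of 500 to 1000 bp, 19 of 320 did (5.94%, 3.61 to 9.12), against 3.16% (2.76 to 3.62). In each class but that of 1000 to 2000 bp the intervals overlapped, for example 9 of 27 domains over 10 kb (33.3%, 16.5 to 54.0) against 25.1% (21.1 to 29.5). For H3K27me3 the difference was among shorter peaks: up to 500 bp, 40.7% (35.1 to 46.5) of RING1B peaks lay on the mark, against 28.2% (27.2 to 29.2), and from 2000 to 5000 bp the shares were 73.0% and 72.4%.

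**Figure D4:**
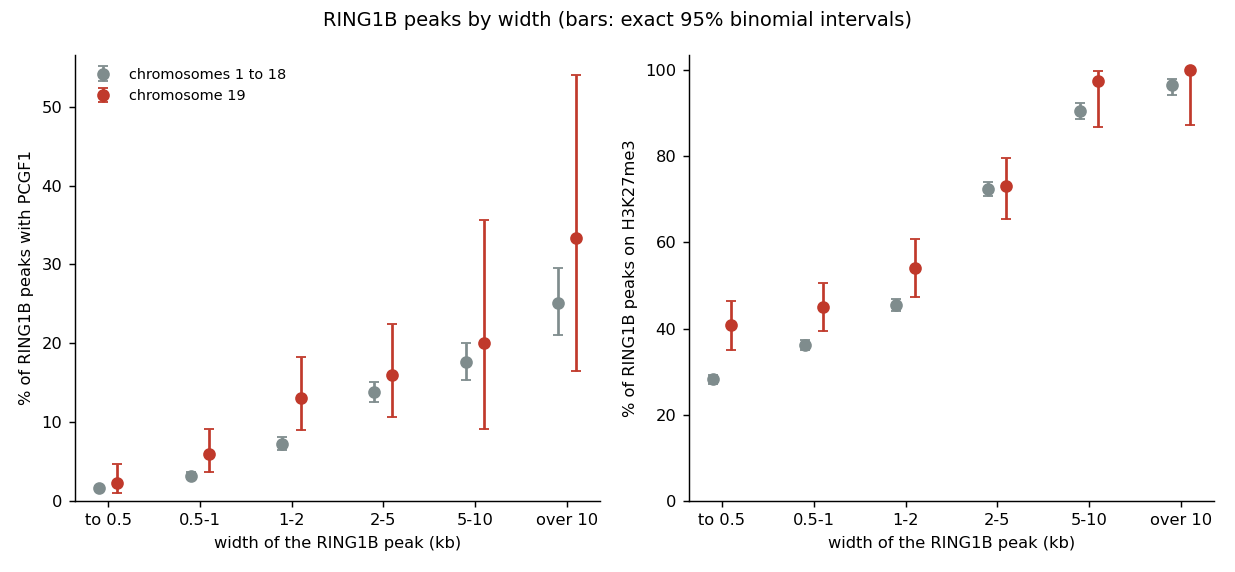
Percentage of RING1B peaks with PCGF1 (left) and on H3K27me3 (right) by width of the RING1B peak, for chromosome 19 (red) and chromosomes 1 to 18 (grey), with exact 95% binomial intervals. The intervals for PCGF1 are apart from 1 to 2 kb, at 13.1% against 7.23%, and those for H3K27me3 are apart for the 3 shortest classes.

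On this chromosome RING1B peaks that held PCGF1 lay on H3K27me3 less often than those that did not, where before any adjustment for width it was more often on 17 of the other 18. H3K27me3 was listed at 37 of the 98 with PCGF1 (37.8%, 28.2 to 48.1). It was listed at 535 of the 976 without (54.8%, 51.6 to 58.0). The difference was -17.1 percentage points. On 17 of the other 18 autosomes it was above 0, with a median of 16.4 and a highest value of 25.1 on chromosome 7, and on chromosome 14 it was -0.095. The share with PCGF1 was the lowest of the autosomes (others 43.1% to 67.2%) and the share without it the highest (others 33.4% to 50.5%).

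With widths matched, the gap on chromosome 19 was wider, but most other autosomes then had a gap of the same sign. At the widths of the 98 peaks, RING1B peaks without PCGF1 on the same chromosome would lie on H3K27me3 in 67.8%, a difference of -30.0 points. The other autosomes had -19.0 on chromosome 14 to 11.7 on chromosome 8, with a median of -1.46, and 12 of the 18 were below 0. From 500 to 1000 bp, 2 of 19 with PCGF1 lay on the mark (10.5%, 1.30 to 33.1), against 142 of 301 without (47.2%). From 1000 to 2000 bp it was 6 of 29 (20.7%, 7.99 to 39.7) against 114 of 193 (59.1%), and from 2000 to 5000 bp 10 of 26 (38.5%, 20.2 to 59.4) against 109 of 137 (79.6%). From 5000 to 10000 bp 8 of 8 with PCGF1 were on the mark, as were 31 of 32 without, and above that 9 of 9 and 18 of 18. The difference was -17.0 points without the first 5 bins and -18.6 without the block from 45 to 47 Mb. With the stronger 50% of both lists it was 1.78 points, from 49 RING1B peaks with PCGF1, and the other autosomes then had 17.4 to 45.8, all above it. With 50% of a RING1B peak to be covered, 14 peaks with PCGF1 were left, and the difference of -24.1 points (-41.2 to 5.39) was not the lowest, since the others reached down to -26.6.

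**Figure D5:**
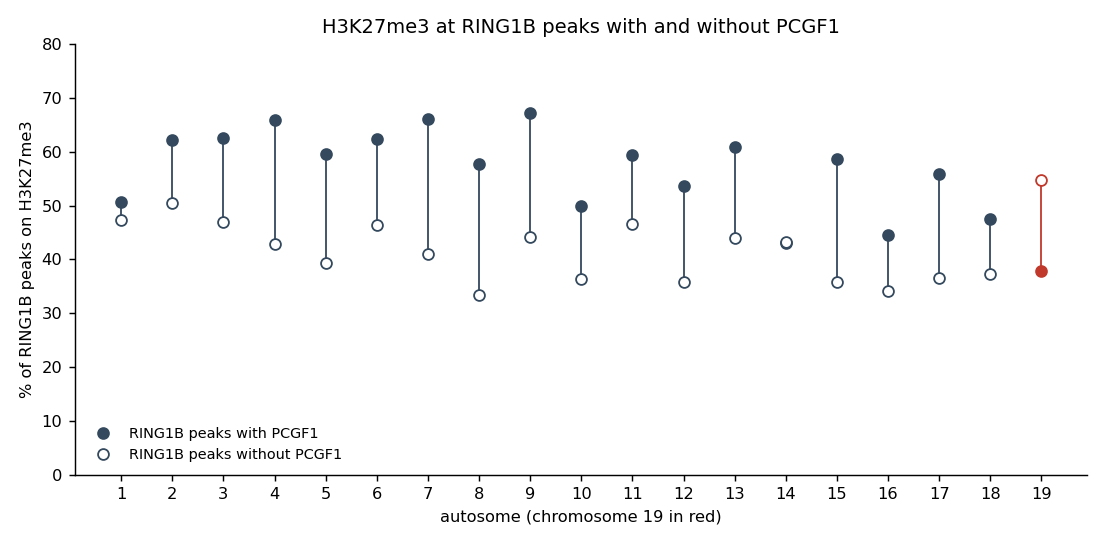
Percentage of RING1B peaks on H3K27me3 for peaks with PCGF1 (filled) and without PCGF1 (open) on each autosome, with chromosome 19 in red. On chromosome 19 the filled point (37.8%) lies below the open point (54.8%), where on 17 of the others it lies above.

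RING1B peaks with PCGF1 were narrower off the mark than on it, and so were those without PCGF1 (medians of 601 and 1035 bp here). A wider peak has more room to meet a region, so this order is a description. For peaks with PCGF1 the same held on chromosomes 1 to 18, with median widths of 1292 bp off the mark and 3488.5 bp on it. On chromosome 19 the 61 without H3K27me3 had a median width of 1461 bp and none exceeded 4369 bp, with a median fold of 3.36. The 37 on H3K27me3 had a median of 4135 bp, reached 24819 bp and had a median fold of 4.01. The first class made up 5.68% (4.37 to 7.24) of RING1B peaks on the chromosome, against 1.44% to 5.38% on the other autosomes. The second made up 3.45% (2.44 to 4.72), which was inside the range of 2.00% to 7.37%. Peaks with neither PCGF1 nor H3K27me3 made up 41.1% (38.1 to 44.1), less than on each of the others (46.95% to 62.96%), and had a median width of 601 bp. RING1B peaks off H3K27me3 held PCGF1 in 12.2% (9.42 to 15.3), above all other autosomes (2.60% to 8.47%), and those on it in 6.47% (4.59 to 8.81), where the others had 4.96% to 20.2%.

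Most occupied RING1B peaks held 1 PCGF1 peak (76 of 98), 14 held 2, and 8 held 3 or more. The site with the most was chr19:45295215-45320033, a RING1B domain of 24819 bp and fold 6.43 with 9 PCGF1 peaks, more than any RING1B peak on chromosomes 1 to 18, where chromosomes 7 and 14 reached 8. It lay in an H3K27me3 region of 89030 bp at chr19:45292590-45381620, ranked 3 by height on the chromosome (326). Another broad one was chr19:24967000-24977770, of fold 5.84, with 4 PCGF1 peaks in the H3K27me3 region ranked 5 by height. The site at chr19:32460793-32464237 (3445 bp, fold 3.53) also held 4. Of the 5 with 3 PCGF1 peaks, 3 lay off H3K27me3: chr19:21345722-21347788, chr19:46574429-46578441 and chr19:53384408-53388718, of 2067 to 4311 bp. The others were chr19:26672020-26682581 and chr19:46220084-46225797.

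All 10 PCGF1 peaks with the highest fold on the chromosome lay on RING1B, where 74.7% of all its PCGF1 peaks did. On H3K27me3 lay 4 of the 10, near the 34.1% of all its PCGF1 peaks. The highest was chr19:7490991-7492594, 1604 bp wide with a fold of 5.76, which ranked 75 in the whole list. RING1B there had a fold of 3.70, and the surrounding H3K27me3 region was 29250 bp wide. The others on the mark were chr19:12575108-12576632, chr19:47252691-47254274 and chr19:46209805-46211952, and these 4 were also the widest of the 10, at 1525 to 2148 bp. The 6 off the mark were 49 to 949 bp wide, led by chr19:21347675-21347723 (49 bp, fold 5.67) and chr19:60832000-60832948 (949 bp, fold 5.64). The remaining 4 were chr19:7342908-7343585, chr19:37509015-37509732, chr19:38911195-38911248 and chr19:60966512-60966890. The last lay in a RING1B domain of 21915 bp that overlapped the nearby H3K27me3 region chr19:60967110-61006580, ranked 4 by height on the chromosome. The 1 PCGF1 peak with a -log10 q of at least 5 was not among these 10: chr19:51217192-51217249 was 58 bp wide, with a -log10 q of 7.35 and a fold of 5.18. It lay on an H3K27me3 region of 1130 bp without RING1B.

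Among the 10 RING1B peaks with the highest fold, broad domains on H3K27me3 stood beside sites of 575 to 4034 bp without the mark. The narrowest of the 10, of 312 bp, lay on it. The highest was chr19:43678149-43692269, a domain of 14121 bp and fold 9.70 with 1 PCGF1 peak, touching 2 H3K27me3 regions. Similar domains were chr19:37243607-37261220 (17614 bp, fold 7.36) and chr19:36615718-36634945 (19228 bp, fold 7.20), each with 2 PCGF1 peaks and a broken row of 4 and 3 H3K27me3 regions. Sites with PCGF1 but no H3K27me3 were chr19:5844517-5846993 (fold 7.09) and chr19:23208037-23212070 (fold 6.47), each with 2 PCGF1 peaks. With neither partner were chr19:53539125-53539699 (fold 7.36), chr19:23461767-23463486 (fold 7.29) and chr19:33175462-33177172 (fold 6.90). On H3K27me3 without PCGF1 were the 312 bp peak chr19:39957599-39957910 (fold 9.21) and chr19:45746308-45755115 (fold 6.89).

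Of the 27 RING1B domains over 10 kb, 9 held PCGF1 (33.3%), against 9.12% of all RING1B peaks on the chromosome. The share with PCGF1 rose from class to class of width. The 5 widest are too few to be set apart from the class over 10 kb. Of the 5 widest RING1B domains, the domain with 9 PCGF1 peaks was the narrowest, and the other 4 held none. These were chr19:4651295-4706329 (55035 bp, ranked 3 by width in the whole RING1B list), chr19:40953152-40993764 (40613 bp), chr19:58574283-58612121 (37839 bp) and chr19:33334979-33359927 (24949 bp), of folds 3.74 to 4.62. The first and the next to last of these each lay on a single H3K27me3 region, of 106710 and 62130 bp. The domain of 40613 bp touched 7 H3K27me3 regions and that of 24949 bp 2, none wider than 19860 bp.

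The widest H3K27me3 region of the whole list was on this chromosome. It ran over 275160 bp at chr19:44656030-44931190, with 133630 bp above the authors' cutoff, and was also the tallest on the chromosome, with a height of 408. It held 3 PCGF1 peaks and 6 RING1B peaks, the widest of them 1660 bp, so RING1B took up little of its length. With chr19:45170630-45250410 (79780 bp, 3 RING1B peaks and no PCGF1), the region around the domain with 9 PCGF1 peaks, chr19:46163850-46226320 (62470 bp, 13 RING1B and 4 PCGF1 peaks) and chr19:46387900-46402070 (14170 bp, 1 and 2), it made up 5 of the 10 tallest regions within bins 42 to 44. The other wide regions were chr19:10361930-10476530 (114600 bp), chr19:4630640-4737350 (106710 bp), chr19:57306470-57403160 (96690 bp) and chr19:56518790-56610700 (91910 bp). Of the 10 tallest, 8 held RING1B and 5 PCGF1. The pair with neither were chr19:40194180-40203060 (height 336) and the 2440 bp region chr19:61297840-61300280 (height 301), close to the end of the span.

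Across all H3K27me3 regions of the chromosome, those with both proteins were the widest and tallest by median. The same held on chromosomes 1 to 18, where that class had a median width of 15940 bp and a median height of 158. On chromosome 19 the 30 with RING1B and PCGF1 had a median width of 16535 bp and a median height of 186. The 330 with RING1B alone had 6665 bp and 103, and the 3477 with neither had 1910 bp and 69.7. The 3 with PCGF1 alone had a median width of 3520 bp and a median height of 119.6. Wide regions have more room for a peak, so this order is a description of the classes.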

How the data were processed

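Positions, overlaps, widths and strengths were taken from 3 lists that the authors deposited, each named for 2 libraries. The submitters' processing notes name Bowtie2, Picard and SAMtools 1.6.0 beside the builds mm9 and dm3, of which mm9 fits the chromosome names and lengths. What called the peaks, with which cutoff and control, was not given in the sources used here. The PCGF1 and RING1B lists are in broadPeak layout, with a deposited score, a fold ratio over background and -log10 p and q values; the score was not used. The H3K27me3 list gives, per the file headers, positions, a signal height of unstated scale and a log p, the last not used. Read depth is unknown, so list lengths do not measure binding.

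Overlap meant at least 1 bp. Each measure was computed on chromosome 19 and on each of chromosomes 1 to 18, with Python 3.11.15, pandas 2.3.3 and scipy 1.17.1; overlap code was checked on simulated peaks. Width adjustment used 6 classes with edges from 500 to 10000 bp. Named sites were the 10 strongest and 5 widest entries, RING1B peaks with 3 or more PCGF1 peaks, PCGF1 peaks past a -log10 q of 5, and the 5 fullest bins. The members and these rules were chosen with earlier results of these data known. Genes were not assigned and no sequence is printed, since the gene and promoter tables used here belong to GRCm38.p6.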

Additional observations from a re-analysis of the deposited data

How the results depend on the processing

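No paired analysis was possible because each list joins its 2 libraries and holds no value per library; for the same reason no library could be left out. Of 60 alternative values for 15 results, 34 stayed within the counting interval of the reported value (for correlations, within the spread over other chromosomes), 23 moved beyond it and 3 turned; 12 of the alternatives were added after seeing the data. The cause was not tested, except that a -log10 q of at least 5 leaves 1 PCGF1 peak. At that cutoff the density ratio was 0.811 for PCGF1 and 1.66 for RING1B. Shares below are followed in brackets by those of chromosomes 1 to 18 at the same setting. PCGF1 then lay on RING1B in 0% (23.7%) and on H3K27me3 in 100% (61.0%). RING1B held PCGF1 in 0% (0.596%) and lay on H3K27me3 in 43.6% (39.7%). H3K27me3 regions held RING1B in 1.54% (1.02%), and the width-adjusted PCGF1 difference was -0.503 points. With the stronger 50% the density ratio was 1.77 for RING1B and 1.55 for H3K27me3, and for PCGF1 2.34 when ranked by fold. PCGF1 then lay on RING1B in 67% (68.3%) and RING1B on H3K27me3 in 43.3% (36.7%). Median widths became 340.5 bp for PCGF1 (other autosomes 304.5 to 533 bp), 1321.5 bp for RING1B (862 to 1377.5 bp) and 3145 bp for H3K27me3 (2630 to 3440 bp), and the difference between RING1B peaks with and without PCGF1 turned to 1.78 points. At the widths of the peaks with PCGF1 that difference was -30.0 points. With 1 kb allowed between peaks, the shares were 87.9% (86.5%) for PCGF1 on RING1B and 42.9% (58.6%) for PCGF1 on H3K27me3. They were 62.7% (52.6%) for RING1B on H3K27me3 and 11.4% (7.36%) for H3K27me3 with RING1B. With 50% of a peak to be covered, RING1B held PCGF1 in 1.30% (1.00%) and lay on H3K27me3 in 45.3% (36.2%). H3K27me3 then held RING1B in 2.68% (1.64%), and the width-adjusted difference was 0.274 points.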
